A study of Homo sapiens with 24 samples.

Results

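The genes described here make, carry, sense and destroy retinoic acid. They are CYP26A1, CYP26B1, RARA, RARB, RARG, ALDH1A3, CRABP2, DHRS3, DHRS9 and RDH10, 10 genes taken by name, with the 27 probe sets whose platform annotation gives 1 of these symbols and no other, out of 54613 probe sets that are not controls. RWPE1, an established line of immortalized but non-transformed human prostate epithelium, received medium with 100 nM 1,25(OH)2D, the hormone form of vitamin D, or with vehicle, which was 0.1% ethanol. Cells were harvested at 6, 24 or 48 h, with 4 labelled biological replicates in each of the 6 groups and an array for each, 24 in all. Every group came from this single line, grown in the same defined serum-free medium with insulin and growth factors. The 48 h flasks alone had their medium renewed during treatment, 24 h before harvest, so that a change between 24 and 48 h and this renewal cannot be told apart. The 6 h flasks were harvested sooner after their last medium than the 24 and 48 h flasks. A change between 6 and 24 h and the time since fresh medium cannot be told apart either.

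Retinol is oxidized to retinal by dehydrogenases such as RDH10 and DHRS9, DHRS3 drives the reverse step, and ALDH1A3 oxidizes retinal irreversibly to retinoic acid. CRABP2 hands retinoic acid to the nuclear receptors RARA, RARB and RARG, which bind DNA with RXR proteins, the partners that the vitamin D receptor also uses, while CYP26A1 and CYP26B1 hydroxylate retinoic acid and so end its action. In epithelia, prostate included, retinoic acid is known as a regulator of differentiation.

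CYP24A1, the enzyme that degrades 1,25(OH)2D, lay between 3.48 and 4.51 on the log2 intensity scale in the 12 vehicle arrays and between 8.90 and 13.9 in the 12 treated arrays. The basal keratins KRT5 and KRT14 did not fall below 15.2 and 16.0 on any array, the luminal keratins KRT8 and KRT18 not below 12.3 and 14.0, and of 18 markers of prostate, stromal, endothelial and leukocyte cells 9 passed the filter on low values, 6 did not and 3 were not analysed here. Among the stromal markers COL1A1 lay between 9.45 and 10.7, whereas COL1A2, PDGFRB and DES did not pass. A single axis held 71.9% of the variance within groups, and 4 arrays lay beyond 0.3 on it: replicate 1 of vehicle at 6 h, replicate 1 of vehicle at 24 h, and replicates 1 and 4 of 1,25(OH)2D at 24 h. Results that change without these arrays are given both ways.

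Of the 27 probe sets, 15 passed the filter, which ranked all probe sets by the level that at least 3 arrays of some group attained and kept the top 47.6%, and 12 did not. Those 12 included the only probe set for CYP26A1 and all 5 for RARB, so 8 of the 10 genes could be tested. The members nearest to the limit of 3.205 were DHRS9 219799_s_at, with a filter value of 3.24, just inside it, and RARB 208412_s_at, with 2.68, just outside. Tests were limma's moderated tests with Benjamini-Hochberg adjustment over all probe sets that passed, and a call means an adjusted p under 0.05.

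**Figure D1:**
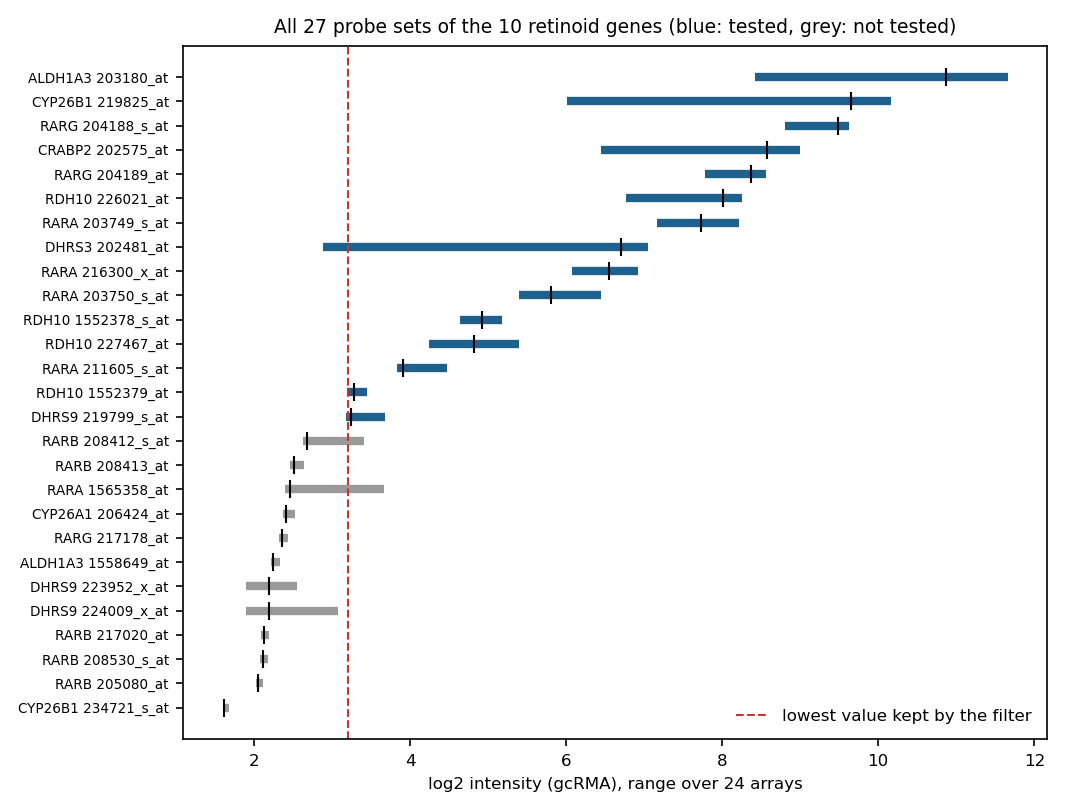
Range of log2 intensity over the 24 arrays for each of the 27 probe sets (horizontal bars, blue where tested and grey where not), with the value used for the filter as a black tick and the lowest value kept, 3.205, as a dashed line. The 12 untested probe sets lay between 1.60 and 3.67 on all arrays; lengths of bars compare arrays within a probe set, and levels of different probe sets are not comparable.

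At 6 h 1,25(OH)2D raised 2 of the 15 tested probe sets, those of CYP26B1 and CRABP2, and lowered none, a share of 13.3% beside 2.69% of all tested probe sets called (1.91% up and 0.781% down). At 24 h none was called, beside 0.354% of all, and 1 of the 15 had an unadjusted p under 0.05, beside 8.58% of all. At 48 h CRABP2 was again raised and DHRS3 was lowered, 2 of 15 or 13.3%, beside 9.64% of all (4.02% up and 5.63% down). The members were chosen with earlier results of these data known, so these shares do not test the set. The median difference of the 15 was -0.04, 0.02 and -0.01 on the log2 scale at 6, 24 and 48 h, and that of all tested probe sets was -0.03, 0.02 and -0.01. The median standard error over all tested probe sets was 0.15, 0.18 and 0.088 at 6, 24 and 48 h. Counts at the 3 times thus rest on unlike precision. Within groups the mean SD at 24 h was 0.253 in vehicle and 0.399 with 1,25(OH)2D, beside 0.119 and 0.161 at 48 h. The effect of 1,25(OH)2D at 24 h differed from that at 6 h for 1 member probe set, CYP26B1, beside 2.12% of all (0.781% higher and 1.34% lower). At 48 h it differed from that at 6 h for 2, CYP26B1 and RDH10, beside 2.80% of all (1.02% higher and 1.77% lower).

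**Figure D2:**
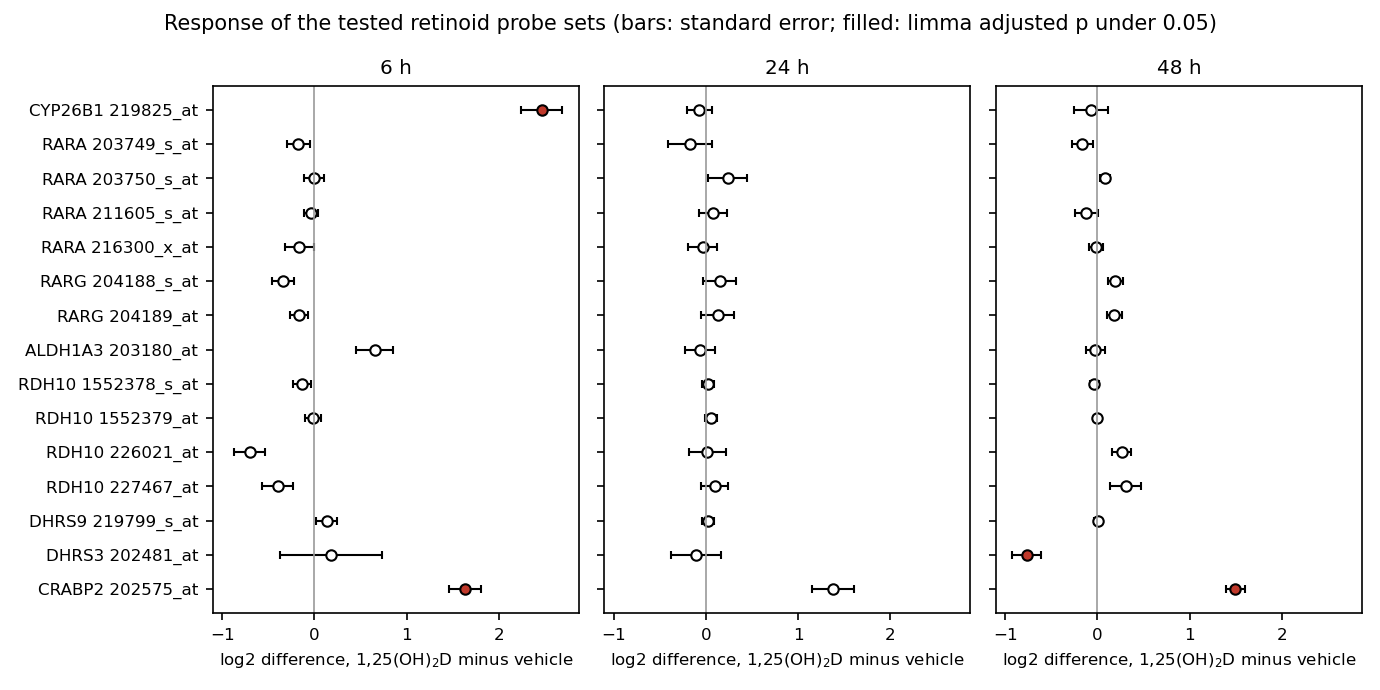
Difference in log2 intensity between 1,25(OH)2D and vehicle for the 15 tested probe sets at 6, 24 and 48 h, with 4 arrays per group; bars are standard errors and filled points passed the limma threshold. CYP26B1 stood at 2.47 at 6 h and near 0 later, CRABP2 stayed between 1.38 and 1.63 at all times, and DHRS3 was at -0.77 at 48 h.

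Of the retinoic acid hydroxylases, CYP26B1 showed the largest response of the tested members, at 6 h and not later. Its tested probe set, 219825_at, gave 6.86, 7.28, 7.50 and 7.27 in the 4 vehicle arrays at 6 h and 9.65, 9.15, 10.16 and 9.81 in the 4 treated arrays. The groups did not overlap, and the lowest treated array was above the highest vehicle array. The difference was 2.47 on the log2 scale, or 5.53-fold (standard error 0.23, limma adjusted p = 7.60e-04). At 24 h the vehicle arrays gave 7.00, 7.11, 6.77 and 6.91 and the treated arrays 7.15, 6.76, 6.96 and 6.64, so the 2 sets were interleaved. At 48 h the vehicle arrays gave 6.63, 6.39, 6.21 and 6.40 and the treated arrays 6.06, 6.83, 6.01 and 6.46, again interleaved. The differences were -0.07 at both times (standard errors 0.13 and 0.19; limma adjusted p = 0.762 and 0.929). The loss of the response was itself called, since the response at 24 h less the one at 6 h was -2.54 (standard error 0.28, limma adjusted p = 7.27e-06). In treated cells CYP26B1 fell by 2.82 on the log2 scale from 6 to 24 h (standard error 0.20, limma adjusted p = 3.21e-09), whereas in vehicle the difference over the same interval was -0.28 (standard error 0.20, limma adjusted p = 0.525).

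A candidate vitamin D response element that the study examined for CYP26B1 is shown because this gene had the largest response at 6 h among the tested members. By chromatin immunoprecipitation the paper reported vitamin D receptor bound at a predicted CYP26B1 element in treated RWPE1 cells, at a lower dose and an earlier time. The stretches in capitals are the half-sites of the candidate element, written 5′ to 3′ with the bases between them in lower case.
CYP26B1 candidate element: AGGTGGccgTGCTCA
Each half-site differed at 2 of 6 positions from the closest of the 4 hexamers AGGTCA, or AGTTCA, or GGGTCA, or GGTTCA, the usual half-sites of nuclear receptors that pair with RXR. A second probe set for CYP26B1, 234721_s_at, stayed between 1.60 and 1.67 on all 24 arrays and did not pass the filter.

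CYP26A1, the other hydroxylase, lay between 2.37 and 2.52 on all 24 arrays and was not tested. Its probe set 206424_at had differences between 1,25(OH)2D and vehicle of -0.03, 0.01 and -0.01 at 6, 24 and 48 h (standard errors 0.033, 0.016 and 0.014) when no filter was applied. RARB, the retinoic acid receptor best known as a direct target of retinoic acid itself, was not tested either. Its 5 probe sets lay between 2.02 and 3.41 over all arrays, and the only array above 2.80 was replicate 4 of 1,25(OH)2D at 24 h, with 3.41 on probe set 208412_s_at, 1 of the 4 arrays that stood apart.

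These 2 genes were also the only members with a direct repeat of the hexamers in the RefSeq promoter windows, which run from 250 bases before to 50 bases after a start site (GRCh38.p14) and were searched on both strands for any 2 of the 4 hexamers in the same direction with 2, 3 or 5 bases between them. Spacings of 2 and 5 are those described for retinoic acid receptors and 3 that for the vitamin D receptor. Windows were given for 9 of the 10 genes, 20 in all. Repeats with 5 bases between were found in 2 of the 20 windows, at RARB and CYP26A1, and in 0.0883% of all 35116 windows. Repeats with 2 or 3 bases between were in none of the 20, beside 0.0399% and 0.0740% of all windows. The stretches are printed because they are the kind of element through which retinoic acid is known to raise these 2 genes. Capitals mark the hexamers of the repeats, which at CYP26A1 read on the opposite strand. A single hexamer that opens the RARB stretch lies outside the repeat and is in lower case.
RARB, chr3:25428180-25428256, plus strand: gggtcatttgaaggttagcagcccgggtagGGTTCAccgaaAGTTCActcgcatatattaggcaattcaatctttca
CYP26A1, chr10:93073773-93073849, plus strand: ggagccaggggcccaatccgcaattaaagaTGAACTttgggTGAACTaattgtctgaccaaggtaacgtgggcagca
The RARB repeat spans bases 53 to 37 before the start site and that of CYP26A1 bases 90 to 74 before it. Single hexamers, which the repeats contain, were in 9 of the 20 windows and in 38.6% of all windows. The windows of CYP26B1, ALDH1A3 and RARG held none of the 4 hexamers, and that of CRABP2 held 1, which says only that these letters are absent or present there.

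**Figure D3:**
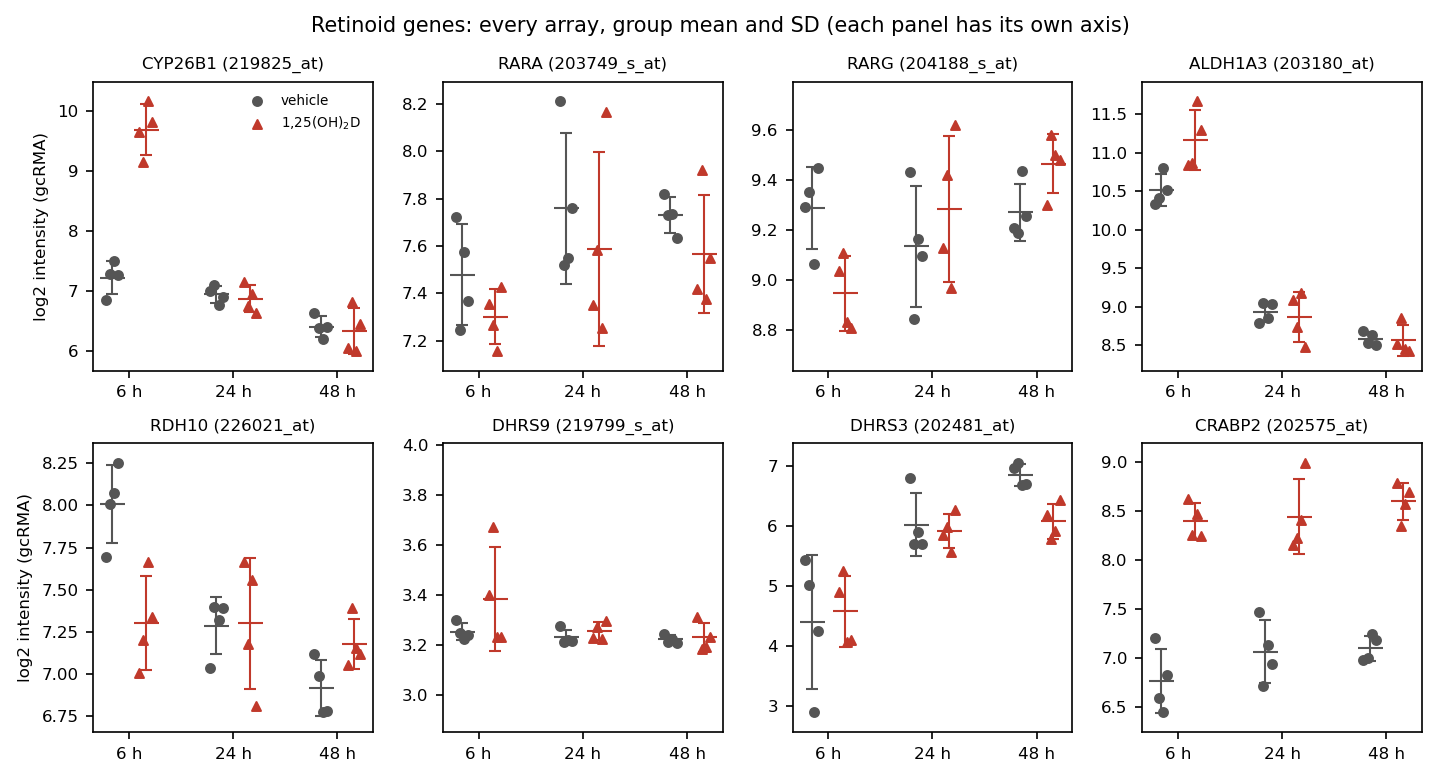
Log2 intensity of the brightest tested probe set of each of the 8 testable genes on every array (grey circles, vehicle; red triangles, 1,25(OH)2D) at 6, 24 and 48 h, with group means and SD (n = 4); each panel has its own vertical axis. CYP26B1 separated at 6 h, CRABP2 at all times and DHRS3 at 48 h, while ALDH1A3 was higher at 6 h than later in both treatments.

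CRABP2, the carrier that delivers retinoic acid to the nucleus, was the member with the steadiest response. At 6 h vehicle arrays gave 7.20, 6.60, 6.45 and 6.83 and treated arrays 8.63, 8.26, 8.48 and 8.25. At 24 h vehicle arrays gave 7.47, 6.72, 7.14 and 6.95 and treated arrays 8.16, 8.22, 8.42 and 8.99. At 48 h vehicle arrays gave 6.99, 7.01, 7.24 and 7.18 and treated arrays 8.79, 8.35, 8.57 and 8.70. At each time every treated array was above every vehicle array. The differences were 1.63 at 6 h (3.10-fold, standard error 0.175, limma adjusted p = 0.00174) and 1.50 at 48 h (2.82-fold, standard error 0.10, limma adjusted p = 1.31e-04).

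At 24 h the difference in CRABP2 was 1.38 (2.60-fold, standard error 0.23) but was not called (limma adjusted p = 0.0722). It was called without the 4 arrays that stood apart (1.38, standard error 0.14, limma adjusted p = 0.0134), which leaves 3 vehicle and 2 treated arrays, in a fit of all 24 arrays (limma adjusted p = 1.46e-04) and by SAM, the permutation method named in the study's methods (q = 0.00547). Each of these settings also called a larger share of all probe sets at 24 h than the main fit. Of 19 alternatives 15 left the difference uncalled (limma adjusted p up to 0.733). Among these were all 8 fits with 1 array left out (limma adjusted p = 0.0731 to 0.289). The effects at 24 and 48 h differed from that at 6 h by -0.25 and -0.13 (standard errors 0.26; limma adjusted p = 0.615 and 1.00). In neither treatment was a change of CRABP2 with time called, with means of 6.77, 7.07 and 7.11 in vehicle and 8.40, 8.45 and 8.60 with 1,25(OH)2D.

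ALDH1A3, which makes retinoic acid from retinal, fell with time in both treatments. In vehicle it gave 10.34, 10.41, 10.80 and 10.51 at 6 h and 8.79, 9.05, 8.85 and 9.04 at 24 h. With 1,25(OH)2D it gave 10.84, 10.87, 11.66 and 11.29 at 6 h and 9.09, 8.74, 9.17 and 8.47 at 24 h. All 8 arrays of 6 h were thus above all 8 of 24 h. ALDH1A3 fell by 1.58 on the log2 scale from 6 to 24 h in vehicle (2.99-fold, standard error 0.17, limma adjusted p = 3.96e-06). It fell by 2.30 on the log2 scale with 1,25(OH)2D (4.92-fold, standard error 0.17, limma adjusted p = 6.43e-09). At 48 h the means were 8.58 ± 0.084 for vehicle and 8.56 ± 0.20 for treated arrays (SD, n = 4), and neither change from 24 to 48 h was called.

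At 6 h the 4 treated arrays of ALDH1A3 were above the 4 vehicle arrays, from 10.84 against at most 10.80. The difference of 0.65 (standard error 0.20) was not called (limma adjusted p = 0.218). It was called in the fit of all 24 arrays (limma adjusted p = 0.0275) and by SAM (q = 0.0229). Of 19 alternatives 16 left it uncalled (limma adjusted p up to 0.506), among them all 8 fits with 1 array left out. The differences at 24 and 48 h were -0.06 and -0.02 (limma adjusted p = 0.83 and 0.968), and the response at 24 h less the one at 6 h, -0.72, was not called (limma adjusted p = 0.168). The second probe set, 1558649_at, lay between 2.21 and 2.34 on all arrays.

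RDH10, which oxidizes retinol to retinal, was lower in every treated array than in every vehicle array at 6 h. Its brightest probe set, 226021_at, gave 7.70, 8.01, 8.07 and 8.25 in vehicle at 6 h and 7.01, 7.20, 7.66 and 7.34 with 1,25(OH)2D. The difference of -0.71 (standard error 0.17) was not called in the fit of the 8 arrays (limma adjusted p = 0.0875). It was called with all 24 arrays (limma adjusted p = 0.0154), by SAM (q = 0.0076) and without the arrays that stood apart, where it was -0.81 (limma adjusted p = 0.0470). Of 19 alternatives 10 left it uncalled (limma adjusted p up to 0.240). By 24 h the vehicle arrays were at 7.04, 7.40, 7.32 and 7.39 and the treated arrays at 7.67, 7.18, 7.56 and 6.81, and the difference was 0.01 (standard error 0.20, limma adjusted p = 0.966).

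In vehicle RDH10 fell by 0.72 on the log2 scale from 6 to 24 h (standard error 0.17, limma adjusted p = 0.0100), and with 1,25(OH)2D the mean was 7.30 at both times. The difference between the treatments in this change, 0.72, was not called (limma adjusted p = 0.164). At 48 h it gave 7.12, 6.99, 6.77 and 6.78 in vehicle and 7.05, 7.39, 7.16 and 7.12 with 1,25(OH)2D, a difference of 0.26 (standard error 0.10, limma adjusted p = 0.171). The response at 48 h less the one at 6 h was 0.97 (standard error 0.24, limma adjusted p = 0.0282), a call that 9 of the 16 arrays each removed when left out (highest adjusted p 0.0683). The other 3 probe sets of RDH10 had differences at 6 h of -0.40 (227467_at), -0.14 (1552378_s_at) and -0.02 (1552379_at), and none of these was called. All 3 were lower in intensity, and 1552379_at stayed between 3.19 and 3.44.

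DHRS9, a dehydrogenase of the same step, was near the bottom of the scale. Probe set 219799_s_at lay between 3.18 and 3.67 on the 24 arrays, and its differences were 0.13, 0.02 and 0.01 at 6, 24 and 48 h (limma adjusted p = 1.00, 0.83 and 0.969). Both other probe sets, which did not pass the filter, had their highest values in treated arrays at 6 h. Probe set 223952_x_at gave 1.96, 1.92, 1.91 and 1.90 in vehicle and 2.19, 2.07, 2.55 and 2.21 with 1,25(OH)2D at 6 h. Probe set 224009_x_at gave 1.95, 1.92, 1.90 and 1.90 in vehicle and 2.19, 2.53, 1.94 and 3.08 with 1,25(OH)2D at 6 h. In every other group both stayed between 1.90 and 1.93. Without a filter neither was called (limma adjusted p = 0.355 and 0.865).

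DHRS3, which turns retinal back into retinol, rose with time and ended lower in treated cells. At 48 h the vehicle arrays gave 6.97, 7.05, 6.68 and 6.70 and the treated arrays 6.18, 5.78, 5.92 and 6.44. The groups did not overlap, and the difference was -0.77, a level 1.70-fold lower (standard error 0.15, limma adjusted p = 0.0192). This call was lost in the fit of all 24 arrays (limma adjusted p = 0.529) and without a filter (limma adjusted p = 0.0607). Leaving out vehicle replicate 1, vehicle replicate 2 or 1,25(OH)2D replicate 3 of 48 h also removed it (limma adjusted p = 0.0525, 0.0574 and 0.0606).

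At 6 h DHRS3 was variable, with 5.43, 5.02, 2.89 and 4.24 in vehicle and 4.90, 5.24, 4.06 and 4.10 with 1,25(OH)2D. At 24 h it gave 6.79, 5.70, 5.90 and 5.69 in vehicle and 5.85, 5.98, 5.57 and 6.26 with 1,25(OH)2D. The 2 treatments overlapped at both times, and the differences were 0.18 and -0.11 (limma adjusted p = 1.00 and 0.823). From 6 to 24 h DHRS3 rose by 1.63 in vehicle (standard error 0.40, limma adjusted p = 0.0130) and by 1.34 with 1,25(OH)2D (standard error 0.40, limma adjusted p = 0.0261). Both calls depended on single arrays: the rise in vehicle was not called without replicate 1 of 24 h (1.37, limma adjusted p = 0.0572), and that with 1,25(OH)2D was not called without replicate 3 or 4 of 6 h or replicate 2 or 4 of 24 h (limma adjusted p from 0.0619 to 0.105). In fits of the 8 arrays alone neither was called (limma adjusted p = 0.156 and 0.0598), and without a filter the treated rise was not (limma adjusted p = 0.0614). The rises were 0.81 and 0.71 with an offset of 32 on the linear scale, and the treated rise was 0.82 with arrayWeights, all called. The response at 48 h differed from the one at 6 h by -0.95 (standard error 0.56, limma adjusted p = 0.727).

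Over time, 3 of the 15 member probe sets changed from 6 to 24 h in vehicle, DHRS3 upward and ALDH1A3 and RDH10 downward, beside 7.82% of all tested probe sets (4.00% up and 3.83% down). With 1,25(OH)2D 3 changed, DHRS3 upward and ALDH1A3 and CYP26B1 downward, beside 16.7% of all (8.87% up and 7.85% down). From 24 to 48 h none changed in vehicle, beside 0.316% of all, and none with 1,25(OH)2D, beside 1.91% of all; 2 and 1 of the 15 had an unadjusted p under 0.05, beside 8.23% and 13.5% of all. The treatment comparisons and the time comparisons use the same arrays and are not independent of each other.

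The receptors RARA and RARG showed no called difference between treatments on any of 6 tested probe sets at any time. RARG 204188_s_at gave 9.29, 9.35, 9.06 and 9.45 in vehicle and 9.04, 9.11, 8.83 and 8.81 with 1,25(OH)2D at 6 h, groups that overlapped in a narrow range. The difference was -0.34 (standard error 0.12, limma adjusted p = 0.294), and by SAM it passed (q = 0.0491). At 24 and 48 h the differences were 0.15 and 0.19 (standard errors 0.18 and 0.079; limma adjusted p = 0.650 and 0.190). The other tested probe set of RARG, 204189_at, had -0.17, 0.13 and 0.18 at the 3 times. Both probe sets were thus lower than vehicle at 6 h and higher at 48 h, by amounts that were not called.

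The vehicle means of RARA 203749_s_at were 7.48 ± 0.21, 7.76 ± 0.32 and 7.73 ± 0.076 at 6, 24 and 48 h (SD, n = 4), and the treated means were 7.30 ± 0.12, 7.59 ± 0.41 and 7.57 ± 0.25. The ranges of the 2 treatments overlapped at all 3 times. Its differences were -0.18, -0.17 and -0.16 (standard errors 0.12, 0.24 and 0.12; limma adjusted p = 0.970, 0.689 and 0.493). The other 3 tested probe sets of RARA had differences between -0.16 and 0.23. Leaving out replicate 2 of 1,25(OH)2D at 48 h brought 203749_s_at under the threshold, at -0.28 (limma adjusted p = 0.0289), and with arrayWeights it was called at 24 h, at -0.38 (limma adjusted p = 0.0236). The untested probe set of RARA, 1565358_at, lay between 2.39 and 3.67 and that of RARG, 217178_at, between 2.31 and 2.44.

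Among the members the closest courses over the 24 arrays were those of CYP26B1 and ALDH1A3, with a Pearson r of 0.87, and the most opposed those of ALDH1A3 and DHRS3, with -0.86, out of 28 pairs. These arrays share 6 group means, and the coefficients mix the time and treatment pattern with variation between arrays within groups. Within groups ALDH1A3, CYP26B1 and DHRS3 correlated at 0.77, 0.59 and -0.65 with the single axis that held 71.9% of that variance. How far this axis shapes the coefficients was not tested. Of 12000 other genes, the 3 nearest to CYP26B1 were NDEL1, MEX3B and LITAF (Pearson r 0.96, 0.95 and 0.95). By ranks their coefficients were 0.86, 0.70 and 0.91 (Spearman). At 6 h MEX3B was 3.54 ± 0.33 in vehicle and 5.72 ± 0.49 after treatment (SD, n = 4). It lay between 3.06 and 3.29 on average in the later groups, near the filter limit of 3.205. The 3 nearest to CRABP2 were CALML3, MAPK13 and CST6 (0.95, 0.94 and 0.94). CALML3 went from 7.80 ± 0.36 to 10.1 ± 0.099 at 6 h and from 9.03 ± 0.24 to 11.1 ± 0.13 at 48 h (SD, n = 4). The 3 nearest to DHRS3 were LOC100996740, HEIH and MXD3 (0.96, 0.95 and 0.95), which were lowest at 6 h in both treatments.

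A wider list of 45 genes of retinoid storage, conversion, transport, receptor partnership and response was counted beside the members. Of these, 36 had a probe set with that symbol alone, 21 had at least 1 tested, and the brightest stood for the gene. None of the 21 was called at 6 or 24 h, beside 2.69% and 0.354% of all tested probe sets. Of their 34 tested probe sets 1 rose and 1 fell at 6 h, and none was called at 24 h. At 48 h 3 of the 21 genes rose and 4 fell, or 10 of 34 probe sets with 4 up and 6 down, beside the 9.64% of all probe sets called at that time, and the median difference of the 21 was -0.01. The 6 that fell include all 3 tested probe sets of TGM2. This list, like the members, was chosen with earlier results of these data known.

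Those that rose at 48 h were FABP5, a second carrier of retinoic acid, by 0.81 (standard error 0.11, limma adjusted p = 0.00317), the retinoid dehydrogenase RDH13 by 0.51 (limma adjusted p = 0.00628) and the retinoic acid-induced receptor GPRC5A by 0.77 (limma adjusted p = 0.0448). FABP5 lay between 10.97 and 11.33 in vehicle and between 11.74 and 12.16 with 1,25(OH)2D, without overlap. At 6 and 24 h its differences were -0.17 and 0.21 and were not called, whereas CRABP2 was already higher at 6 h. GPRC5A had a called rise at 6 h on another probe set, 203108_at (0.95, limma adjusted p = 0.0328), and RDH13 a called fall at 6 h on another, 1559190_s_at (-0.49, limma adjusted p = 0.0307). At 48 h these probe sets had differences of 0.54 and 0.26 and were not called (limma adjusted p = 0.157 and 0.0869). RDH13 225449_at was not called at 48 h either (0.37, limma adjusted p = 0.119). On the brightest probe set of GPRC5A, 212444_at, the difference at 6 h was 1.07 and was not called (limma adjusted p = 0.231). The saturase RETSAT had a called rise at 48 h only on its dimmer probe set, 218124_at (0.43, limma adjusted p = 0.00598).

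Those that fell at 48 h were TGM2, a transglutaminase known to be induced by retinoic acid, PLAAT4, another retinoid-responsive gene, NCOA2, a receptor coactivator, and SDR16C5, a retinol dehydrogenase. TGM2 lay between 8.85 and 8.93 in vehicle and between 7.63 and 7.94 with 1,25(OH)2D. Its difference was -1.14 (standard error 0.077, limma adjusted p = 1.10e-04), and its other 2 tested probe sets had -1.24 and -1.35. The differences of PLAAT4, NCOA2 and SDR16C5 were -0.60, -0.45 and -0.32 (limma adjusted p = 0.0166, 0.0305 and 0.0284). At 6 h TGM2 201042_at and SDR16C5 had differences of -0.57 and -0.32, and PLAAT4 and NCOA2 of 0.13 and 0.29, none of them called. At 24 h TGM2 201042_at and SDR16C5 were at -0.14 and 0.04. A missing call at 6 h is thus no sign that TGM2 or SDR16C5 changed only late. NRIP1, a receptor corepressor named after its values were seen, had the widest difference of the list at 6 h, from 5.10 in vehicle to 7.12 with 1,25(OH)2D, and was not called (2.03, standard error 0.45, limma adjusted p = 0.0623).

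**Figure D4:**
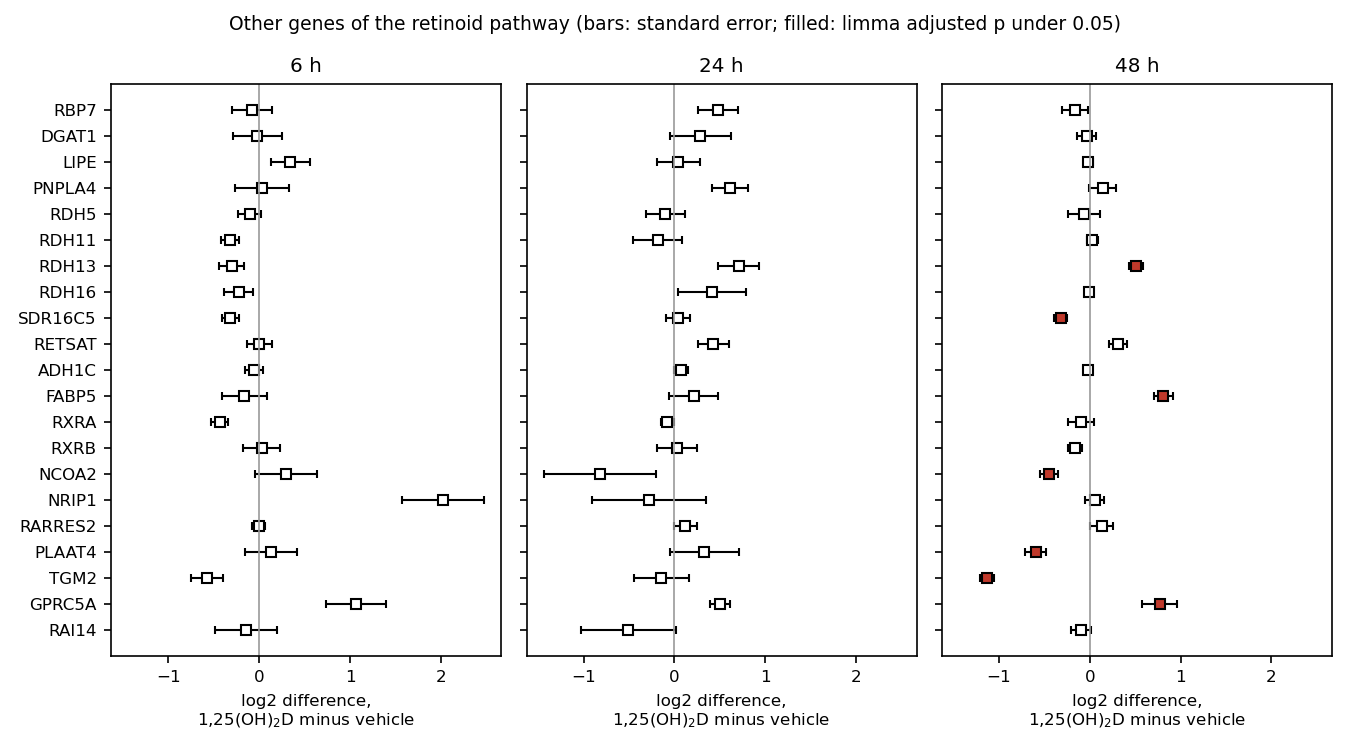
Difference in log2 intensity between 1,25(OH)2D and vehicle at 6, 24 and 48 h for the brightest tested probe set of each of 21 further genes of the retinoid pathway (n = 4 arrays per group; bars, standard errors; filled squares passed the limma threshold). No square is filled at 6 or 24 h; at 48 h RDH13, FABP5 and GPRC5A lie above 0 and SDR16C5, NCOA2, PLAAT4 and TGM2 below it.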

How the data were processed

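RNA of 24 RWPE1 cultures was hybridised to Affymetrix U133 Plus 2.0 arrays. The authors corrected background, quantile-normalized and summarised probe sets with gcRMA (version not given in the sources used here), and deposited log2 intensities for 54613 probe sets and 62 controls. gcRMA presses unexpressed probe sets to a narrow floor, where their small spread says little. After removal of controls, probe sets were ranked by the level that 3 arrays of some group attained, and the top 25986, as many as the study kept by present calls, entered the tests (limit 3.205). All 24 columns were used.

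Each time was fitted alone (8 arrays, 2 group means), and time changes and differences between effects in a fit of all 24 arrays, with lmFit and eBayes of limma 3.58.1 in R 4.3.3. Alternatives were other filters, normalizations, offsets, variance options, samples and SAM, re-implemented here with all 70 relabellings. Differences are on the log2 scale.

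Genes were named from the platform annotation through single symbols, updated by gene ID to RefSeq, and 21885 tested probe sets carried 1 symbol. The brightest tested probe set by mean over all arrays stood for each of 12008 genes. Named were all members, listed pathway genes past the threshold at any time and, for each member called with treatment, the 3 genes with the highest Pearson r. The members and lists were chosen with earlier results of these data known. Promoter windows came from RefSeq (GRCh38.p14). Arrays have no read depth, so their number limits precision: the mean SD within groups was 0.119 to 0.399. Whether replicates were independent cultures is known only from the label, and p-values measure the spread between these samples. No 2 of the 36 pairs of arrays within groups were identical.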

Additional observations from a re-analysis of the deposited data

Results flagged for a closer look

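The effect of 1,25(OH)2D differed between times for 2 members. For CYP26B1 (219825_at) the response at 24 h less the one at 6 h was -2.54, and at 48 h less 6 h -2.54 (limma adjusted p = 7.27e-06 and 8.10e-06), and for RDH10 (226021_at) the response at 48 h less 6 h was 0.97 (limma adjusted p = 0.0282).

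In 8 of 90 groups of 4 arrays of the tested member probe sets, 1 array lay far from the other 3 for the range of its group, by Dixon's ratio. Chance flags about 1 in 20 independent groups, and these groups share arrays and genes. Of these 8 values 4 were on arrays that stood apart. For RDH10 they were 3.31 on 1552379_at in replicate 1 of vehicle at 24 h, 4.35 on 227467_at in replicate 1 of 1,25(OH)2D at 6 h, 4.37 on 227467_at in replicate 1 of vehicle at 24 h and 4.25 on 227467_at in replicate 3 of vehicle at 48 h. For RARA 211605_s_at they were 4.47 in replicate 4 of 1,25(OH)2D at 24 h and 4.45 in replicate 2 of vehicle at 48 h. The remaining values were 8.03 for RARG 204189_at in replicate 3 of vehicle at 6 h and 3.28 for DHRS9 219799_s_at in replicate 1 of vehicle at 24 h. Some gaps were small: the nearest value was 3.25 for RDH10 1552379_at and 3.22 for DHRS9 219799_s_at.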

How the results depend on the processing

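Of 256 alternative values for the 13 called differences of named genes, 232 kept their direction and their call, 24 lost the call, all for DHRS3 and RDH10, and none changed direction. The calls of CYP26B1 and CRABP2 held under every alternative run. The cause of lost calls was not tested.

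Counts of called member probe sets of 15, with limma unless stated, moved as follows, each with the share of all probe sets called under that setting in parentheses. At 6 h the main count was 2; it was 4 with all 24 arrays (4.16%), 5 by SAM (6.53%) and 2 to 3 with 1 array left out. At 24 h it was 0; it was 1 with all 24 arrays (2.13%), by SAM (5.58%) or without the 4 arrays that stood apart (21.2%), and 2 with arrayWeights (33.5%). At 48 h it was 2; it was 1 without a filter (3.01%) or with all 24 arrays (3.75%), and 1 to 3 with 1 array left out. A stricter filter left 7 member probe sets, DHRS3 not among them, and gave 1 (15.4%). For responses that differed between 6 and 24 h it was 1; it was 2 with a second quantile normalization (2.02%), median centring (1.56%) or without the 4 arrays (4.04%), 3 with arrayWeights (16.2%) and 1 to 2 with 1 array left out. Between 6 and 48 h it was 2; it was 1 without a filter (1.12%), 5 with arrayWeights (10.9%) and 1 to 2 with 1 array left out. In vehicle arrayWeights gave 8 from 6 to 24 h (27.8%) and 6 from 24 to 48 h (32.5%), and with 1,25(OH)2D 5 (31.2%) and 9 (50%), where the main counts were 3 and 0 in each; 2 of its 4 fits stopped before convergence. With 1,25(OH)2D from 24 to 48 h median centring (1.77%) or a second quantile normalization (1.95%) gave 1, and from 6 to 24 h the count was 2 to 6 with 1 array left out, the 6 without replicate 1 of 24 h (38.9%).

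The replicate numbers did not pair the arrays: of 12 correlations between same-numbered arrays 4 were over 0.1 (range -0.889 to 0.756), 3 of these at 6 h (0.756, 0.589 and 0.67, with -0.366 for the other number), and 3 of 24 arrays correlated best with their own number. With the replicate block the count was 4 at 6 h (3.17%), where ALDH1A3 and RDH10 were added (limma adjusted p = 0.0367 and 0.0331), and 1 at 48 h (5.21%), where DHRS3 was not called (limma adjusted p = 0.0683).

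Differences that changed sign were not called either way. With a second quantile normalization, at 24 h, CYP26B1 was at 0.10, DHRS3 at 0.074 and DHRS9 at -0.017. With median centring ALDH1A3 was at 0.10 at 24 h and 0.016 at 48 h, CYP26B1 at 0.095 and DHRS3 at 0.058 at 24 h. With arrayWeights, at 24 h, ALDH1A3 was at 0.14, CYP26B1 at 0.041 and RARG at -0.056. Without the 4 arrays, at 24 h, DHRS3 was at 0.010 and RDH10 at -0.0047. With 1 array left out the ranges were -0.16 to 0.069 for ALDH1A3 at 24 h and -0.12 to 0.024 at 48 h, -0.16 to 0.0095 for CYP26B1 at 24 h and -0.23 to 0.042 at 48 h, -0.32 to 0.53 for DHRS3 at 6 h and -0.22 to 0.15 at 24 h, -0.018 to 0.024 for DHRS9 at 48 h, and -0.11 to 0.18 for RDH10 at 24 h.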
